A study of Mus musculus with 2 samples.

Results

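The HIF pathway genes described here are 10 genes of the table that compares PB and PB-TERRA mESCs, out of 18888 genes in all. They were chosen by symbol, with the log2 ratios of this table already known, so those ratios are given as a description and carry no test. They comprise the subunit genes Hif1a and Epas1, the prolyl hydroxylase genes Egln1 and Egln3, and the low-oxygen target genes Ndufa4l2, Bnip3, Pdk1, Vegfa, P4ha1 and P4ha2. RNA came from 46C mESCs, a mouse embryonic stem cell line with a green fluorescent reporter at Sox1, at passages 21 to 24 on gelatin. The PB cells carried the empty PiggyBac vector, and the PB-TERRA cells carried the same vector with cloned telomeric repeats, from which polyadenylated TERRA (telomeric repeat-containing RNA) was expressed. Each condition was sequenced as 1 library. Whether either culture came from a single clone is not given in the sources used here. No replicate spread could therefore be estimated, and every comparison is between 2 libraries.

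Cells measure oxygen through the stability of the HIF alpha subunits. In oxygen, prolyl hydroxylases of the Egln family hydroxylate the alpha subunit, the Vhl ubiquitin ligase recognises the modified protein, and it is degraded. In low oxygen the alpha subunit persists, pairs with Arnt and binds a short DNA core, the hypoxia response element, near its target genes. Egln1 and Egln3 are themselves known HIF targets, which makes them a feedback on the pathway, whereas Egln2 is not known as such a target. Regulation of HIF lies largely in the protein, which was not measured here.

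All 8 hydroxylase and target genes among the 10 were lower in the PB-TERRA library, and the genes of both alpha subunits, Hif1a and Epas1, were slightly higher. The lowest ratios were those of Ndufa4l2, Egln3 and Bnip3, which stood at 39.8%, 51.0% and 64.1% of their PB level. The other 5 stood between 72.3% for Egln1 and 83.2% for Vegfa. Expression is given in FPKM, a fragment count divided by gene length and library depth. A log2 ratio compares FPKM + 0.1 in PB-TERRA with that in PB, so a negative value stands for a lower level in PB-TERRA.

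**Figure D1:**
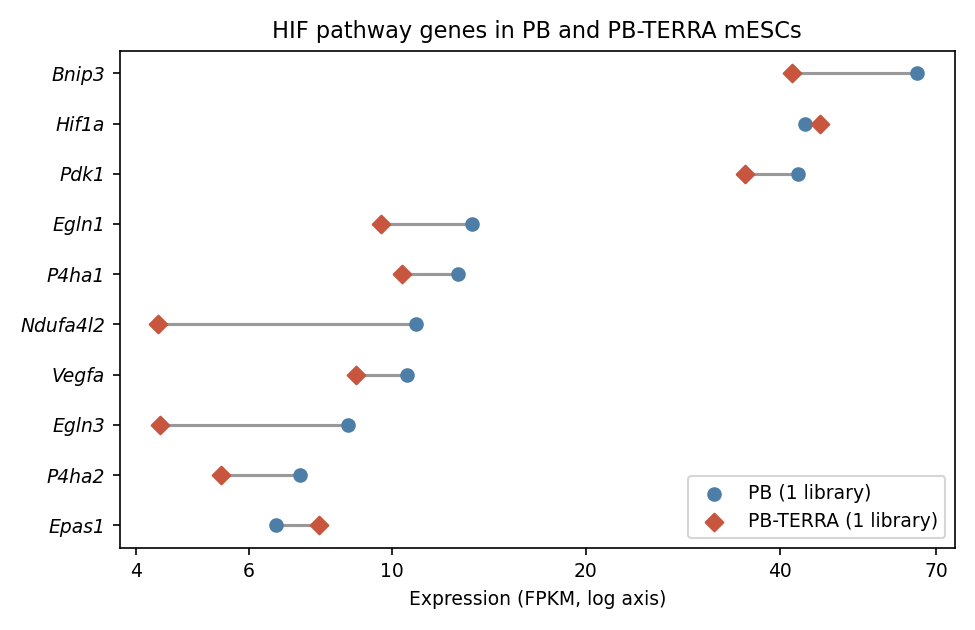
Expression of the 10 HIF pathway genes in FPKM on a log axis, with 1 point per library (circles PB, diamonds PB-TERRA). The diamonds lie to the left of the circles for 8 genes, furthest for Ndufa4l2 (10.88 to 4.33 FPKM), and to the right for Hif1a and Epas1.

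Promoters are shown because the hypoxia response element is the DNA core through which HIF is known to act. The 5 printed are those of both hydroxylase genes, of the 2 target genes with the most cores, Bnip3 and P4ha2, and of Hif1a, which was not lower, beside them. The sequences are RefSeq windows of build GRCm38.p6, from 250 bases before to 50 bases after the annotated start site, and were available for 8 of the 10 genes. Epas1 and Ndufa4l2 had no entry. The cores searched were ACGTG and GCGTG on either strand, and they stand in capitals in the windows. A palindromic CACGTG holds ACGTG on each strand and counts as 2 cores. The windows lie at chr8:124949205-124949504, - strand for Egln1, chr12:54203825-54204124, - strand for Egln3, chr7:138909457-138909756, - strand for Bnip3, chr11:54100674-54100973, + strand for P4ha2 and chr12:73907617-73907916, + strand for Hif1a, each read in the direction of its gene.
Egln1: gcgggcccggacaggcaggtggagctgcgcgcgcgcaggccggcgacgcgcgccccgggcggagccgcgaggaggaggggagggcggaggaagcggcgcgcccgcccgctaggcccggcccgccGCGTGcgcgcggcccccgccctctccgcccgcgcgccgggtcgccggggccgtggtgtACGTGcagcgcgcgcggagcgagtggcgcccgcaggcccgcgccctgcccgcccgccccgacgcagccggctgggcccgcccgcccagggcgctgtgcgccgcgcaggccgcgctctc
Egln3: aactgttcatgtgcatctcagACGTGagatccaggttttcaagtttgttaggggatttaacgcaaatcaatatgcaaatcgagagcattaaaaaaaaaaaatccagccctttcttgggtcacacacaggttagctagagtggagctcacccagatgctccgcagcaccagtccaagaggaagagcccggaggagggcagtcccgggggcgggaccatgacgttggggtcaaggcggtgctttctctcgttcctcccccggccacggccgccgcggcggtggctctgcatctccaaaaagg
Bnip3: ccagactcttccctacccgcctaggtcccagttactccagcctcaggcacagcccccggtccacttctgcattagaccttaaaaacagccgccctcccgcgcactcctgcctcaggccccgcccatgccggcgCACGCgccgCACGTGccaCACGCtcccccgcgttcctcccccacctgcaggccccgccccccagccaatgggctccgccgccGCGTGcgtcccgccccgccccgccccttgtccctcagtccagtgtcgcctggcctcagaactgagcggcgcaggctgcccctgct
P4ha2: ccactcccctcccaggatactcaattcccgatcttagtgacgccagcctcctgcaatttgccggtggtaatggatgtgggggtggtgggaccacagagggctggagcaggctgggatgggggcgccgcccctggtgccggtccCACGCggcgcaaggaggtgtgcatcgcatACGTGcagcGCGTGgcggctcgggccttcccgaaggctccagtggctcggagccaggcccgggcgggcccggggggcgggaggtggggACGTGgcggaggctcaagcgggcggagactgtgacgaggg
Hif1a: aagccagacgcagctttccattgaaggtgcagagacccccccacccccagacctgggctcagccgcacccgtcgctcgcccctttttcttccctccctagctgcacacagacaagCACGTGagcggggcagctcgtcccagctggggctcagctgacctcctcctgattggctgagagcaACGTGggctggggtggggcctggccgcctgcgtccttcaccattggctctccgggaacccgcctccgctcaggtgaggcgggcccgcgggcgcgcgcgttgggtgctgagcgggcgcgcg

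Bnip3 had 5 cores in its window, the largest number among the 10 windows of these genes, and they included a CACGTG. P4ha2 had 4 cores, of which 1 begins 10 bases after the start site, and P4ha1 had 3. Egln1 had 2 and Egln3 had 1, which lies 229 bases before the start. Hif1a, which was not lower, held 3 cores. Pdk1 had 2 cores in the upstream window and 0 in the other, and Vegfa had 0 in the upstream window and 2 in the other. In all, 8 of these 10 windows (80%) held a core. Of all 32851 promoter windows 43.8% held one, as did 63.0% of the 12131 windows of genes past the expression filter. The windows of these genes were rich in G and C, with a median of 67.7% against 61.0% for expressed genes. A core is a match of letters and not a binding site, and binding was not measured.

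**Figure D2:**
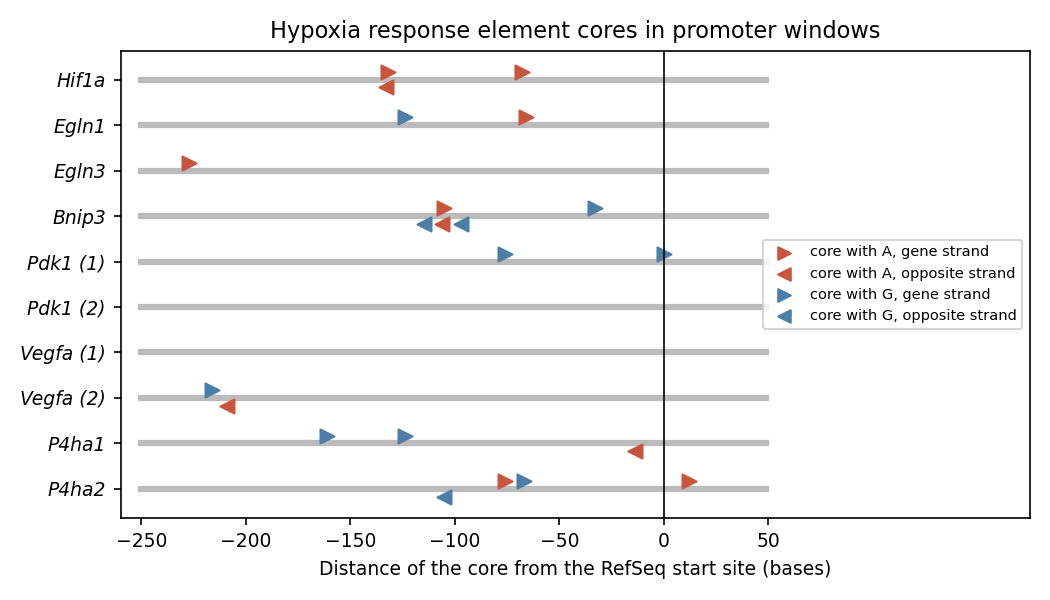
Positions of the hypoxia response element cores in the 10 RefSeq promoter windows of 8 genes, as distance in bases from the start site (black line). Red marks cores with A as the first base, blue those with G, and arrowheads give the strand. Cores are present in 8 windows and lie mostly upstream of the start, and 2 windows, 1 each of Pdk1 and Vegfa, hold none.

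The alpha subunits are the oxygen-labile part of the HIF dimer. Hif1a, which encodes the widely expressed alpha subunit, had 43.73 FPKM in PB against 46.11 in PB-TERRA (log2 ratio 0.08). Epas1, which encodes the HIF2A subunit, had 6.60 and 7.71 FPKM (log2 ratio 0.22). Hif1a was thus the more abundant of the pair, 6.63 times the level of Epas1 in PB and 5.98 times in PB-TERRA. Hif3a, the remaining and less well understood alpha subunit, had 3.80 and 3.35 FPKM (log2 ratio -0.18). Hif1a made up 80.8% of the summed alpha subunit FPKM in PB and 80.7% in PB-TERRA. Epas1 made up 12.2% and 13.5%, and Hif3a 7.02% and 5.86%. Arnt, the constitutive partner, had 22.65 and 24.45 FPKM (log2 ratio 0.11), and Arnt2, the related partner, had 1.87 and 1.84 FPKM.

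The table holds no read numbers, so they were estimated here from the FPKM values and the gene lengths, at an inferred depth of 24.75 M reads in PB and 24.90 M in PB-TERRA. Hif1a had about 4970 reads in PB and 5272 in PB-TERRA, and the 95% interval of the log2 ratio of the reads was 0.02 to 0.13. Epas1 had 855 and 1005 reads, with an interval of 0.09 to 0.36. Both intervals lie above 0, but they are exact binomial (Clopper-Pearson) intervals that cover counting error only. In Hif1a, 7.25% of the 50-base stretches of its longest protein-coding transcript in GENCODE M21 also occur, on either strand, in transcripts of overlapping gene models. The library kit named in the labels does not mark strand, so reads of an antisense transcript cannot be told apart from those of Hif1a there.

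The Egln enzymes use molecular oxygen to hydroxylate the alpha subunits. Egln1, known as the main oxygen sensor of the family, had 13.29 FPKM in PB against 9.61 in PB-TERRA (log2 ratio -0.46). Egln3 had 8.56 and 4.37 FPKM (log2 ratio -0.95). The PB-TERRA library was lower for both. Egln2 had 24.93 and 24.76 FPKM (log2 ratio -0.01). The reads of Egln1 were 1121 and 816 (95% interval of the log2 ratio -0.60 to -0.34) and those of Egln3 were 546 and 281 (-1.18 to -0.76). For Egln2, with 1240 and 1239 reads, the interval of -0.12 to 0.10 included 0. The intervals of Egln1, Egln2 and Egln3 did not overlap each other. They again cover counting error only, and Egln1 and Egln3 were chosen with their ratios known.

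The make-up of the hydroxylase family differed between the libraries. Summed over the 3 genes, Egln expression was 46.78 FPKM in PB against 38.74 in PB-TERRA (log2 ratio -0.27). The share of Egln2 was 53.3% in PB and 63.9% in PB-TERRA. Egln1 held 28.4% and 24.8%, and Egln3 held 18.3% and 11.3%. Egln2 was 2.91 times as abundant as Egln3 in PB and 5.67 times in PB-TERRA.

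**Figure D3:**
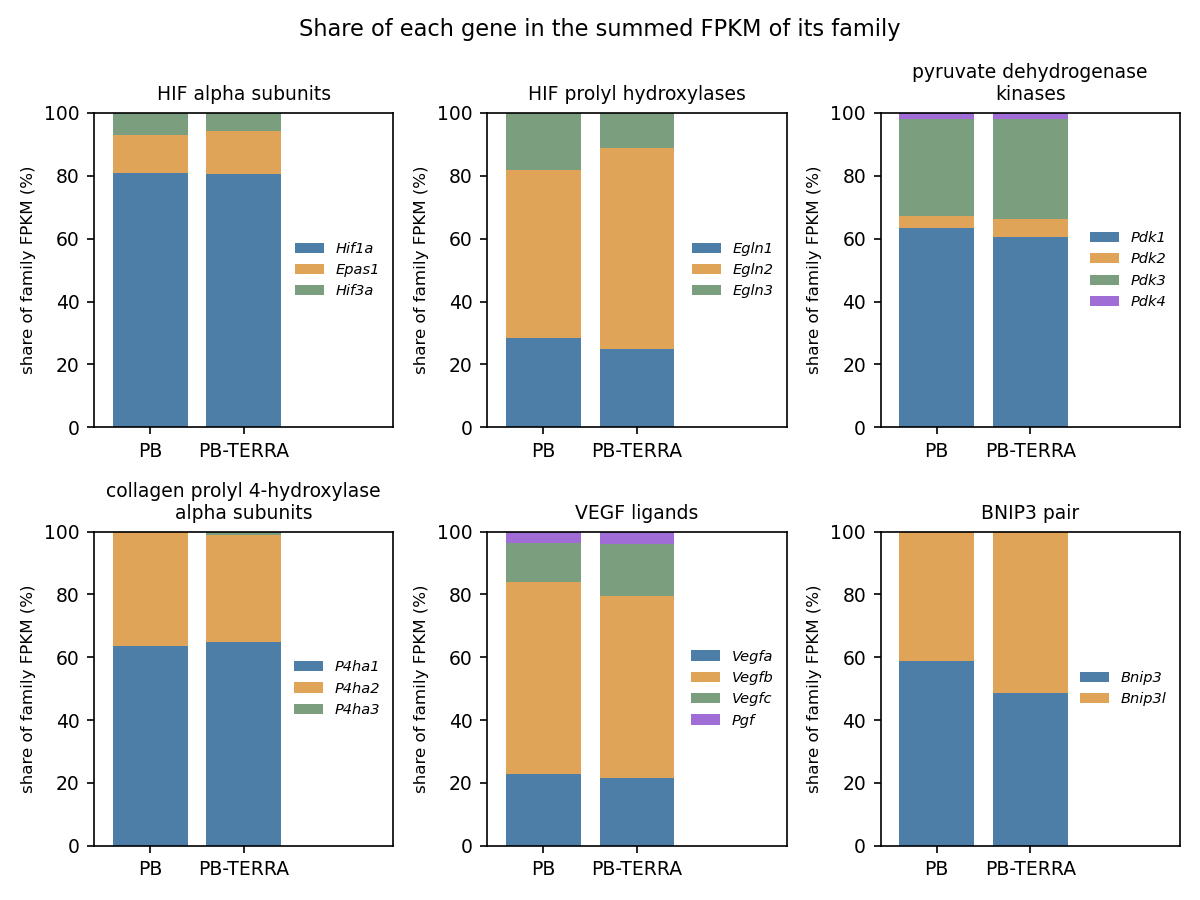
Share of each gene in the summed FPKM of its family, in percent, for the PB and PB-TERRA libraries (1 bar each). The share of Egln3 among the HIF prolyl hydroxylases was 18.3% in PB and 11.3% in PB-TERRA, and that of Bnip3 in its pair was 58.9% and 48.6%, while that of Hif1a among the alpha subunits was 80.8% and 80.7%.

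Of the target genes, 3 act in mitochondria. Ndufa4l2, a known HIF target related to the respiratory chain subunit Ndufa4, had 10.88 FPKM in PB against 4.33 in PB-TERRA (log2 ratio -1.31). Its log2 ratio was the farthest from 0 of the 10 genes. Of the 12263 genes past the filter of 1 FPKM in at least 1 library, 31 had a lower ratio, and of the 8653 genes whose mean was 5 FPKM or more, 4 did. It also rested on the fewest reads, 235 and 94, with an interval of -1.69 to -0.98. Its relative Ndufa4 had 329.7 and 327.1 FPKM (log2 ratio -0.01) and was 30.3 times as abundant as Ndufa4l2 in PB and 75.5 times in PB-TERRA. An exon of Shmt2, on the opposite strand, shares 32 bases with Ndufa4l2.

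Bnip3 encodes a receptor of the outer mitochondrial membrane that marks mitochondria for removal by autophagy. It had 65.25 FPKM in PB against 41.82 in PB-TERRA (log2 ratio -0.64), the largest difference in FPKM (-23.4) of the 10 genes. The reads were 2650 and 1709 (interval -0.73 to -0.55). Its relative Bnip3l, which has a like role and is also a known HIF target, had 45.57 and 44.26 FPKM (log2 ratio -0.04, interval of the reads -0.11 to 0.03). Bnip3 was the more abundant of the pair in PB (1.43 times Bnip3l) and the less abundant in PB-TERRA (0.945 times). The Bnip3 value is less certain than the others, because 62.4% of the 50-base stretches of its transcript also occur, on either strand, in transcripts of other gene models. None of the 6 gene models that share most stretches with it has a row of its own in the table under that symbol.

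Pdk1 encodes a kinase that inhibits pyruvate dehydrogenase and so keeps pyruvate out of the mitochondrial citric acid cycle. It had 42.74 FPKM in PB against 35.33 in PB-TERRA (log2 ratio -0.27), from 5381 and 4475 reads (interval -0.33 to -0.22). Pdk1 was the most abundant of the 4 kinase genes in both libraries. Pdk3 had 20.95 and 18.54 FPKM (log2 ratio -0.18). Pdk2 lay in the opposite direction, at 2.40 and 3.41 FPKM (log2 ratio 0.49), from 129 and 184 reads (interval 0.17 to 0.84). Pdk4 had 1.21 and 1.20 FPKM. The share of Pdk1 in the summed kinase FPKM was 63.5% in PB and 60.4% in PB-TERRA.

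Vegfa, the secreted ligand that drives the growth of blood vessels, had 10.57 FPKM in PB against 8.80 in PB-TERRA (log2 ratio -0.26), from 1004 and 841 reads (interval -0.40 to -0.13). Its log2 ratio was the closest to 0 of the 8 lower genes. Vegfb, a related ligand, had 28.13 and 23.68 FPKM, with a log2 ratio of -0.25 near that of Vegfa. The share of Vegfa among the VEGF ligands was 22.9% and 21.5%. Vegfc, which acts on lymphatic vessels, had 5.80 and 6.79 FPKM (log2 ratio 0.22, interval of the reads -0.02 to 0.47), and Pgf had 1.68 and 1.67 FPKM. Of the 5 VEGF receptor genes, 4 passed the filter, 3 of them higher (48.6% of all genes were) and 1 lower, with a median log2 ratio of 0.16. The counting interval included 0 for 3 of the 4 and lay above 0 for Kdr alone (18.1% of all genes). Kdr, the main receptor for Vegfa, had 0.79 and 1.11 FPKM (log2 ratio 0.44, from 105 and 148 reads). Kdr passed the filter only through PB-TERRA, the library in which it was higher.

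P4ha1 and P4ha2 encode catalytic alpha subunits of the collagen prolyl hydroxylase, which works in the endoplasmic reticulum and, like the Egln enzymes, needs oxygen and iron. P4ha1 had 12.66 FPKM in PB against 10.36 in PB-TERRA (log2 ratio -0.29), from 1234 and 1016 reads (interval -0.41 to -0.17). P4ha2 had 7.19 and 5.43 FPKM (log2 ratio -0.40), from 399 and 303 reads (interval -0.63 to -0.19). The intervals of the pair overlap, and no interval was computed for the difference between their ratios. P4ha1 held 63.7% of the summed alpha subunit FPKM in PB and 64.9% in PB-TERRA. P4hb, the shared beta subunit, had 160.1 and 144.8 FPKM (log2 ratio -0.14). P4ha3 had about 2 and 10 reads and did not pass the filter.

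**Figure D4:**
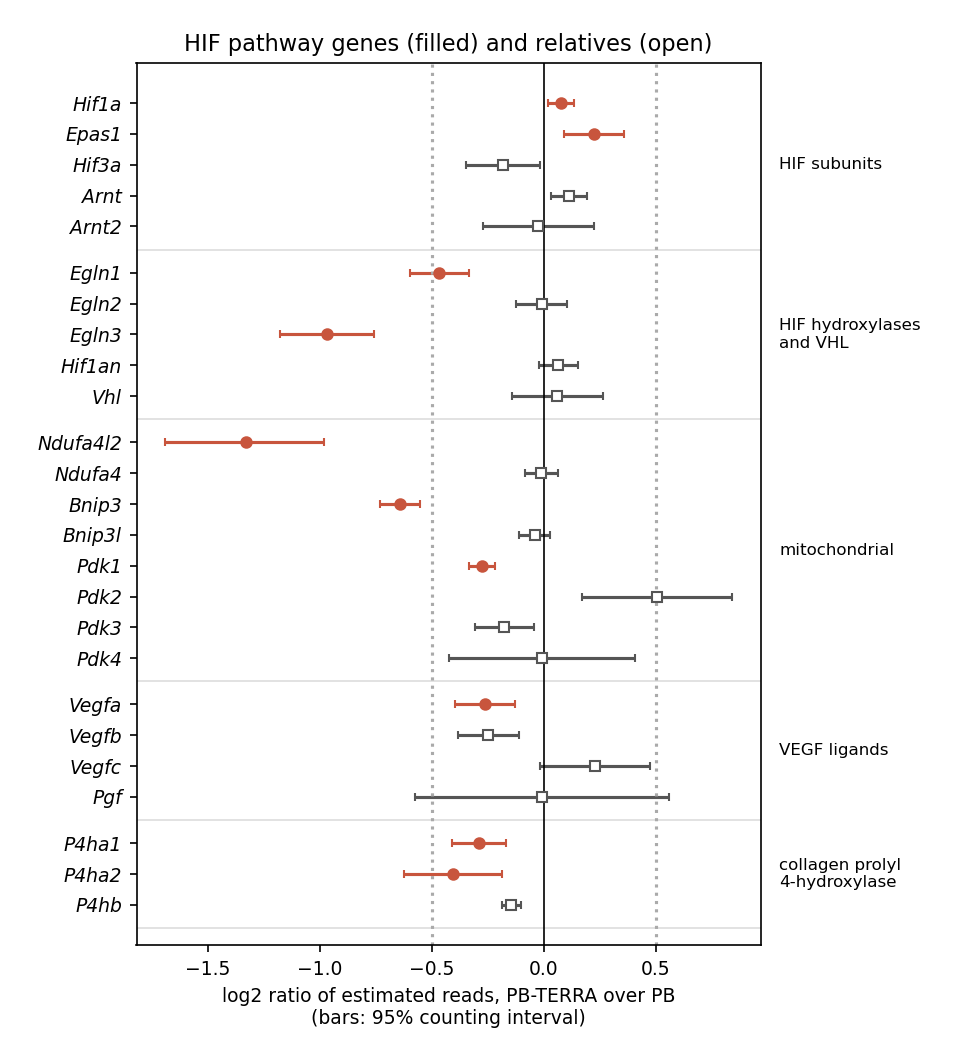
Log2 ratio of the estimated reads, PB-TERRA over PB, for the 10 HIF pathway genes (filled circles) and their relatives (open squares), with 95% counting intervals as bars and dotted lines at 0.5 and -0.5. Egln3, Ndufa4l2 and Bnip3 lie beyond the left dotted line with their whole intervals, while Egln2, Ndufa4 and Bnip3l lie near 0.

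All 10 genes passed the filter, and 3 of them had an absolute log2 ratio of at least 0.5, each with the lower value in PB-TERRA. Over all 12263 genes past the filter, 4.67% had such a ratio in either direction and 2.37% in the lower direction. Among the 8653 genes whose mean was 5 FPKM or more, 1.54% had such a ratio in either direction and 0.809% lay at -0.5 or lower. At a threshold of 1 only Ndufa4l2 among the 10 remained, against 0.913% of all genes. The median log2 ratio of the 10 genes was -0.34, and that of all genes past the filter was -0.0044, with an SD of 0.31 across genes. The counting interval lay below 0 for 8 of the 10 and above 0 for 2. Over all genes past the filter it lay below 0 for 17.6% and above 0 for 18.1%. In rank, 0.514% of all genes had a lower ratio than Egln3, 1.38% than Bnip3, 2.75% than Egln1, 3.92% than P4ha2, 7.53% than P4ha1, 8.30% than Pdk1 and 8.96% than Vegfa. As the genes were chosen with these ratios known, the counts describe the choice and are no evidence about the pathway.

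The order of the levels differed between the libraries. In PB it ran from Bnip3, Hif1a and Pdk1 through Egln1, P4ha1, Ndufa4l2, Vegfa, Egln3 and P4ha2 to Epas1. In PB-TERRA Hif1a stood first and Bnip3 second. Epas1, the lowest of the 10 in PB, stood above P4ha2, Egln3 and Ndufa4l2 in PB-TERRA. Hif1a and Pdk1 in PB (43.73 and 42.74 FPKM) and Egln3 and Ndufa4l2 in PB-TERRA (4.37 and 4.33 FPKM) were close neighbours. Without replicates, no neighbours in this order can be said to differ beyond their spread.

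The remaining genes of the oxygen sensing machinery had log2 ratios within 0.5 of 0, in a range that also held those of Hif1a and Epas1. The 17 listed genes comprise the other HIF subunits and hydroxylases, the Vhl ligase, the coactivators and the ligases and deubiquitinase known to act on the pathway. All 17 passed the filter, 12 were higher (48.6% of all genes were) and 5 lower. Of the 17, 0 had an absolute log2 ratio of at least 0.5 (4.67% of all genes). Their median log2 ratio was 0.01, with a range of -0.20 to 0.22. Vhl had 6.08 and 6.35 FPKM (log2 ratio 0.06) and Hif1an, the asparaginyl hydroxylase that blocks HIF from its coactivators, had 13.71 and 14.33 FPKM (0.06). Of the coactivators, Ep300 had 38.00 and 41.68 FPKM (0.13) and Crebbp 10.06 and 11.17 FPKM (0.15). The counting interval included 0 for 11 of the 17, lay above 0 for 5 (18.1% of all genes) and lay below 0 for Hif3a. Egln1 and Egln3 had lower ratios than all 17, but they were chosen with their ratios known, so this describes the choice. Egln2, Vhl and Hif1an had intervals that included 0.

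A list of 52 other known HIF targets extends the 10 genes. Of these, 44 passed the filter, 32 were lower and 12 higher in PB-TERRA, and their median log2 ratio was -0.11. Over all genes past the filter 50.9% were lower. A log2 ratio of -0.5 or lower was found for 4 of the 44 (2.37% of all genes), and 0 had a ratio of 0.5 or higher (2.30%). The 4 genes were Loxl2, a collagen crosslinking enzyme (8.01 and 5.09 FPKM, log2 ratio -0.64), Slc16a3, the lactate exporter (103.2 and 68.65 FPKM, -0.59), Stc2, a secreted glycoprotein (8.29 and 5.52 FPKM, -0.58), and Car12, a carbonic anhydrase (1.02 and 0.67 FPKM, -0.54). Car12 rested on 91 and 60 reads and passed the filter only through PB, where it was higher. Among the targets with a mean of at least 5 FPKM, 3 had a ratio past 0.5, and these were Loxl2, Slc16a3 and Stc2. Over all genes with such a mean, 1.54% had such a ratio in either direction and 0.809% lay at -0.5 or lower. Among the 3 highest ratios at a mean of at least 5 FPKM were those of Tet1, a DNA demethylase (60.90 and 71.04 FPKM, 0.22), and Wsb1, a ubiquitin ligase subunit (31.41 and 33.63 FPKM, 0.10).

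The listed targets did not all lie on the lower side. The counting interval lay below 0 for 18 of the 44 (17.6% of all genes), above 0 for 3 (18.1%) and included 0 for 23. Without the genes for glucose and lactate transport, the phosphoglucomutases and the Pfkfb genes, a subset set after the data were seen, 25 of 37 were lower and the median log2 ratio was -0.07. The glycolytic enzymes, which are HIF targets as well, had 14 of 16 genes lower (50.9% of all genes were) and a median log2 ratio of -0.28. Aldoc (7.23 and 3.56 FPKM, -1.0), Tpi1 (288.0 and 195.6 FPKM, -0.56) and Pgk1 (517.8 and 380.8 FPKM, -0.44) had the lowest ratios among these enzymes. The highest at a mean of at least 5 FPKM were those of Hk1 (10.73 and 11.23 FPKM, 0.07), Pgam1 (636.5 and 617.0 FPKM, -0.045) and Hk2 (75.06 and 69.89 FPKM, -0.10).

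**Figure D5:**
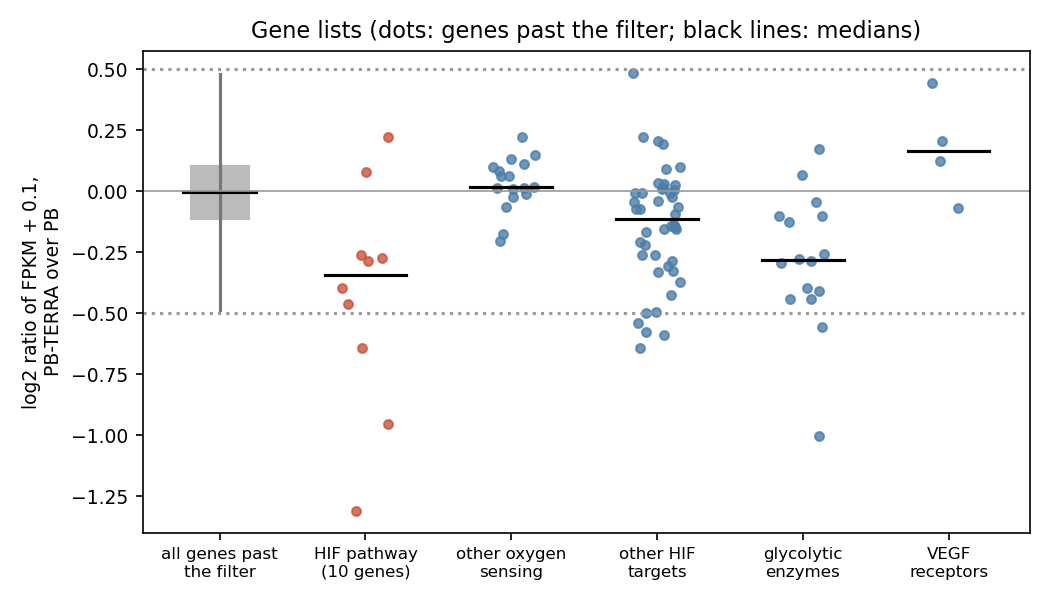
Log2 ratio of FPKM + 0.1, PB-TERRA over PB, for genes past the filter (dots) in each list, with medians as black lines and dotted lines at 0.5 and -0.5. For all genes the box holds the middle 50% and the line the middle 95%. The median was -0.34 for the 10 HIF pathway genes, 0.01 for the other oxygen sensing genes, -0.11 for the other HIF targets and -0.28 for the glycolytic enzymes.

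Enzymes and chaperones of collagen processing other than P4ha1 and P4ha2 were listed as well. Of 12 genes, 9 passed the filter. Of these, 8 were lower in PB-TERRA (50.9% of all genes were) and 1 was higher, and the median was -0.14 on the log2 scale. Loxl2 was the only gene of these 9 at -0.5 or lower (2.37% of all genes). Serpinh1, the collagen chaperone, had 46.06 and 40.61 FPKM (log2 ratio -0.18), while Plod2, a lysyl hydroxylase and known HIF target, had 27.14 and 27.64 FPKM (0.03). Of the collagen genes among the fibroblast markers, Col1a1 and Col1a2 were higher in PB-TERRA, Col1a1 at 7.99 and 12.14 FPKM (log2 ratio 0.60) and Col1a2 at 0.92 and 1.37 FPKM (0.53). Col1a2 passed the filter only through PB-TERRA.

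The annotations in the table give a partial view of what the 10 genes share. A biological process term was listed for 8 of the 10, and a term with hypoxia or oxygen levels for 3, namely Egln1, Bnip3 and Vegfa. The term 4-hydroxyproline metabolic process was carried by 4 of the 10, Egln1, Egln3, P4ha1 and P4ha2, and by 8 genes of the table. Of the other 4 genes with this term, Egln2, P4hb and Hoga1 had log2 ratios of -0.01, -0.14 and -0.13, and Aldh4a1 had 0.11. Hoga1 did not pass the filter, and Hoga1 and Aldh4a1 were named after their values were seen.

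The cultures had the markers of mESCs, with all 8 listed markers past the filter, between 49.74 FPKM for Klf4 and 1162 for Dppa5a in PB, and log2 ratios from -0.18 to 0.14. In bulk RNA, fewer cells of a type and less RNA per cell cannot be told apart. Of 14 listed primitive endoderm markers, 11 passed the filter, and all 11 were higher in PB-TERRA (48.6% of all genes were), with a median log2 ratio of 0.33. The counting interval lay above 0 for 8 of the 11 (18.1% of all genes). Their summed FPKM was 130.3 and 145.1, with Sparc as the most abundant (83.46 and 86.45 FPKM) and Gata6 (1.22 and 2.26 FPKM) and Pdgfra (0.51 and 1.0 FPKM) past a log2 ratio of 0.5 (2.30% of all genes). Pdgfra passed the filter only through PB-TERRA. Of 8 fibroblast markers, 5 passed the filter, 3 higher and 2 lower, and the summed FPKM was 21.05 and 24.74. Of the endothelial and blood markers, Tek alone passed (2.04 and 2.12 FPKM). No marker found in the table was at the floor of 0.01 FPKM. The part of these cell types in the ratios of the 10 genes was not tested.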

How the data were processed

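The authors sequenced RNA of 46C mESCs carrying PB or PB-TERRA, with 1 library for each. The authors deposited 1 table of 18888 genes, whose expression values are read as FPKM from their form, since the header names no unit. They were rounded to 2 decimals with a floor of 0.01. The submitters' processing notes name HISAT, Cufflinks and mm9, without versions. The table's columns of the authors' own comparison hold a log2 fold change, a p-value and an adjusted p-value (a score, as it can exceed 1). These deposited columns were not used.

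For each gene, log2 of FPKM + 0.1 in PB-TERRA minus that in PB was computed. Genes had to reach 1 FPKM in either library, and the threshold was 0.5. With 1 library per condition there is no test. The members and gene lists were chosen with earlier results of these data known. Lists were matched by symbol or a unique RefSeq synonym. The genes named are the 10, those of the sensing, relative, collagen and VEGF receptor lists, and of the other lists those past 0.5 and the 3 highest and 3 lowest at a mean of at least 5 FPKM. Of the marker lists the most abundant gene and those past 0.5 are named, and other exceptions are marked. A gene that this rule names is not reported here.

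Reads were estimated after the data were seen. In 300 to 1200-base genes of low FPKM, the depth and length offset were sought at which values came closest to whole reads. These were 24.75 M reads for PB and 24.90 M for PB-TERRA, with 115 bases taken off the length. Within rounding (0.005 FPKM), 76.6% of 923 values in PB and 81.8% of 972 in PB-TERRA were whole, against 18.0% and 17.9% for arbitrary values. Computations were tested on simulated data. Promoters and transcripts came from RefSeq (GRCm38.p6) and GENCODE M21 (GRCm38), and the annotation behind the table is not given in the sources used here. Tables were handled with pandas 2.3.3 and numpy 2.4.6 in Python 3.11.15, intervals came from scipy 1.17.1, and plots from matplotlib 3.10.9.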

Additional observations from a re-analysis of the deposited data

How the results depend on the processing

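For each of the 10 genes, 6 alternatives that can change its ratio were run, namely a pseudocount of 0.01 or 1, centring on the median, upper quartile scaling, a correction for gene length in 50 bins and, chosen after seeing the data, the ratio of estimated reads. All 60 values kept the direction and lay within the counting interval. Part of this was fixed in advance. The ratio of estimated reads uses the reads that gave the interval, so its values had to lie within it. Centring and upper quartile scaling shift all genes by nearly the same amount. No filter and a mean of at least 5 FPKM cannot change the ratio of a single gene and bear only on the lists. Ndufa4l2 ranged from -1.33 to -1.16, Egln3 from -0.97 to -0.83, Bnip3 from -0.65 to -0.59 and Hif1a from 0.04 to 0.08. At a threshold of 1, the number of the 10 genes past it was 1 and that of other HIF targets was 0 (0.913% of all genes past the filter). The number of other HIF targets past 0.5 was 4 of 44 in the main setting. It was 3 with a pseudocount of 1, 5 with one of 0.01, 5 with estimated reads and 6 with upper quartile scaling. Without the filter, 7 of the 52 other HIF targets passed 0.5, and the share of all unfiltered genes past it was not computed. Vldlr (lower), Cox4i2 and Lox (both higher), genes of low FPKM named after their values were seen, then entered. The gene length correction gave a median log2 ratio of -0.24 for the glycolytic enzymes. Over all genes, the median log2 ratio was -0.06 among the shortest and 0.05 among the longest 10% of genes. No paired analysis was possible because each condition has 1 library. The depth of 24.75 M and 24.90 M reads limits precision for genes of few reads, and the spread between cultures is unknown.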

Other observations

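Genes annotated in the table with a process term for hypoxia or oxygen levels were looked at after the data were seen. The table lists 101 such genes, 3 of them among the 10 described above. Of the other 98 genes, 77 passed the filter, 38 higher and 39 lower, with a median log2 ratio of -0.0046, near that of all genes. Stc2 alone lay at -0.5 or lower (2.37% of all genes). Pmaip1, a gene of apoptosis (16.12 and 23.10 FPKM, log2 ratio 0.52), and Gata6 lay at 0.5 or higher (2.3% of all genes). The counting interval lay below 0 for 14 of the 77 and above 0 for 14, against 17.6% and 18.1% of all genes. The annotated hypoxia genes were thus divided about evenly between higher and lower.

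Some known HIF targets had ratios near 0. Bnip3l, Plod2 and Kdm3a are known HIF targets, and their log2 ratios were -0.04, 0.03 and 0.0035, with intervals that included 0. Kdm3a, a histone demethylase, had 45.58 and 45.69 FPKM and was named after its value was seen.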
